A study of Mus musculus with 16 samples.

Results

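The response of the liver transcriptome to a steatosis-steatohepatitis diet (SSD) was compared between mice with and without the receptor NKG2D, as a diet by genotype interaction over 4 groups. All 16 of 16 deposited whole-liver libraries entered this contrast, and 13068 of the 25719 genes in the table were tested, those whose normalized counts averaged 10 or more. Wild type C57BL6J (WT) mice were fed a normal chow diet (NCD, 4 mice, numbered 1, 2, 3 and 5) or SSD (5 mice), and Klrk1-/- mice, which carry a knockout of the gene for NKG2D, were fed NCD (4 mice) or SSD (3 mice). By the study's methods the mice were male, 8 to 12 weeks old, and the livers were taken after 3 weeks on a diet rich in animal fat, fructose and cholesterol. Neither genotype carried a further allele or agent by the labels, which do not say whether WT and Klrk1-/- mice were littermates, so genotype and breeding line cannot be told apart. Each library is 1 mouse.

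NKG2D is an activating receptor on natural killer cells, innate-like T cells and γδ T cells. It binds ligands that stressed cells put on their surface, such as the RAE-1, H60 and MULT1 families of the mouse, and drives killing and cytokine release. In a fatty liver, hepatocytes are filled with lipid, resident Kupffer cells are joined by macrophages that take up lipid, stellate cells lay down collagen and some cells enter the cell cycle. The interaction asks whether these responses to the diet depend on NKG2D. It is the log2 difference between SSD and NCD in Klrk1-/- mice minus the same difference in WT mice, so that a negative value means a weaker rise, or a deeper fall, without the receptor. It was computed on log2(normalized count + 1), a scale that understates changes of genes with few reads. A call required both an interaction beyond 2-fold (1 on the log2 scale) and a limma p under 0.05 after Benjamini-Hochberg adjustment.

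The libraries held 19892025 to 28936707 reads on genes. Klrk1 itself (chromosome 6, 129587286 to 129600827, minus strand of GRCm39) had 22.9, 20.1, 28.7 and 20.97 normalized counts in the WT mice on NCD and 57.8, 32.9, 34.3, 71.1 and 34.3 on SSD. The Klrk1-/- mice had 2.30, 4.98, 8.71 and 1.23 on NCD and 0.966, 1.61 and 4.29 on SSD. Every Klrk1-/- mouse lay below every WT mouse, and the interaction of Klrk1 was not called (-1.5, adjusted p = 0.237). Of 10 hepatocyte markers 9 are in the table, each above a mean of 10 in every group, and they summed to at least 1498280 normalized counts in each mouse, with WT mice below Klrk1-/- mice on SSD. WT SSD mouse 1 stood apart on the first principal component (48.6% of the variance), at 66.0, where the other mice on SSD lay between 21.3 and 44.2. It also had the highest sum of 5 Kupffer cell markers, 10737 against 4940.2 to 9033 in the other WT mice on SSD. In the Klrk1-/- group on NCD, mice 2 and 3 had 100.8 and 47.3 normalized counts of Rilpl1, where mice 1 and 4 had 590.5 and 605. Their counts of Gdpd3 were 48.5 and 16.2, where mice 1 and 4 had 326 and 522. The WT mice ranged from 45.6 to 101.0 for Rilpl1 and from 7.82 to 31.3 for Gdpd3, and the 3 Klrk1-/- mice on SSD had at least 900.2 and 229. These 2 genes were singled out after their values were seen, and the labels give no difference between these 4 mice.

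The diet response differed between the genotypes for 70 genes, 0.536% of those tested. For 57 of them (0.436%) the interaction was negative and for 13 (0.0995%) it was positive. With 1 mouse left out the number of calls ranged from 28 to 132. It was 28 without Klrk1-/- SSD mouse 3, 31 without Klrk1-/- SSD mouse 1, 43 and 46 without Klrk1-/- NCD mice 1 and 2, 45 without WT NCD mouse 1 and 132 without WT SSD mouse 5. Without both Klrk1-/- NCD mice 2 and 3 it was 11, of which 10 were among the 70. That fit leaves only mice 1 and 4 in the group, and no other pair was left out for comparison. Of 43 called genes named here, 9 kept their call without mice 2 and 3 (Aqp8, Arhgef26, Gdf15, Id2, Ly6d, Ndrg1, Paox, Slc25a25 and Zbtb16) and 34 lost it, none with a change of sign. The adjusted p alone passed 0.05 for 115 genes, and the unadjusted p for 2256. The diet alone called 1199 genes in WT mice (9.18%, 810 higher and 389 lower on SSD) and 681 in Klrk1-/- mice (5.21%, 323 higher and 358 lower). Scaling every mouse to the same total gave 1672 higher and 263 lower genes in WT mice, and 661 higher and 258 lower in Klrk1-/- mice. Quantile normalization gave 566 higher and 478 lower in WT mice. Of 1426 genes called for diet in either genotype, 454 were called in both, 453 of them in the same direction, and 57 (4.0%) had a called interaction. Over all genes tested the diet effects of the 2 genotypes, which share no mice, had a Pearson correlation of 0.743 and a Spearman correlation of 0.656, given here as a description.

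**Figure D1:**
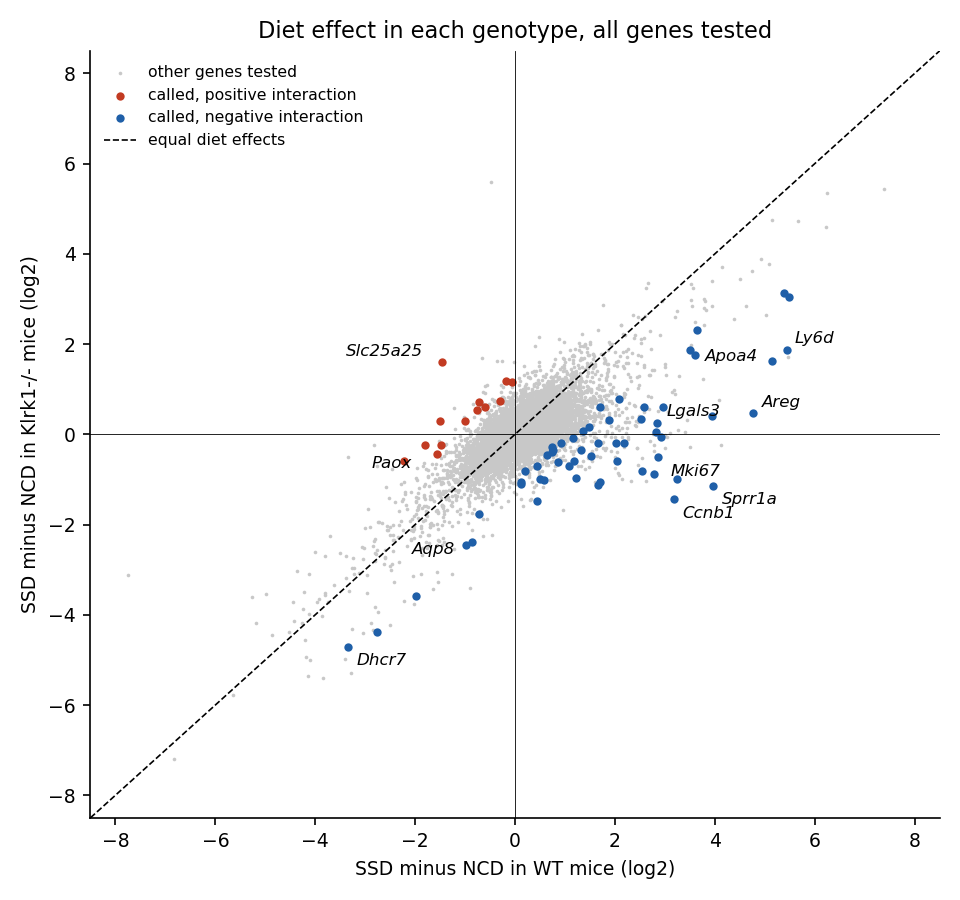
Log2 difference between SSD and NCD in WT mice (x axis, 5 against 4 mice) and in Klrk1-/- mice (y axis, 3 against 4 mice) for 13068 genes, each a point; red and blue mark the 13 positive and 57 negative interactions called, and the dashed line equal effects. Most genes lie along the diagonal, the blue points lie below it, largely to the right where WT mice rose, and the red points lie above it.

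Among the 70 genes, the effect of the diet was called in WT mice only for 37, in Klrk1-/- mice only for 9, in both for 11 and in neither for 13. The most frequent form was a rise on SSD that was called in WT mice and not in Klrk1-/- mice, found for 31 genes. A fall called only in WT mice was found for 6 genes, a fall called only in Klrk1-/- mice for 7, and a rise called only in Klrk1-/- mice for 2 (Id2 and Fbf1). Both genotypes were called in the same direction for 10 genes and in opposite directions for 1, Slc25a25. Seen from the other side of the contrast, a genotype difference was called on SSD only for 32 of the 70 genes and on NCD only for 19. It was called on both diets for 4 (Paox, Hspa1b, Gdf15 and Fam83d) and on neither for 15. Some of the 15, such as Aqp8, passed the adjusted p and missed the fold limit. Over all genes, 227 (1.74%) were called between genotypes on NCD, 112 higher and 115 lower in Klrk1-/- mice, and 287 (2.2%) on SSD, 34 higher and 253 lower. Quantile normalization gave 58 higher and 202 lower on SSD. With 1 mouse left out, the NCD count ranged from 115 (without Klrk1-/- NCD mouse 3) to 252. The SSD count ranged from 147 (without Klrk1-/- SSD mouse 1) to 407.

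**Figure D2:**
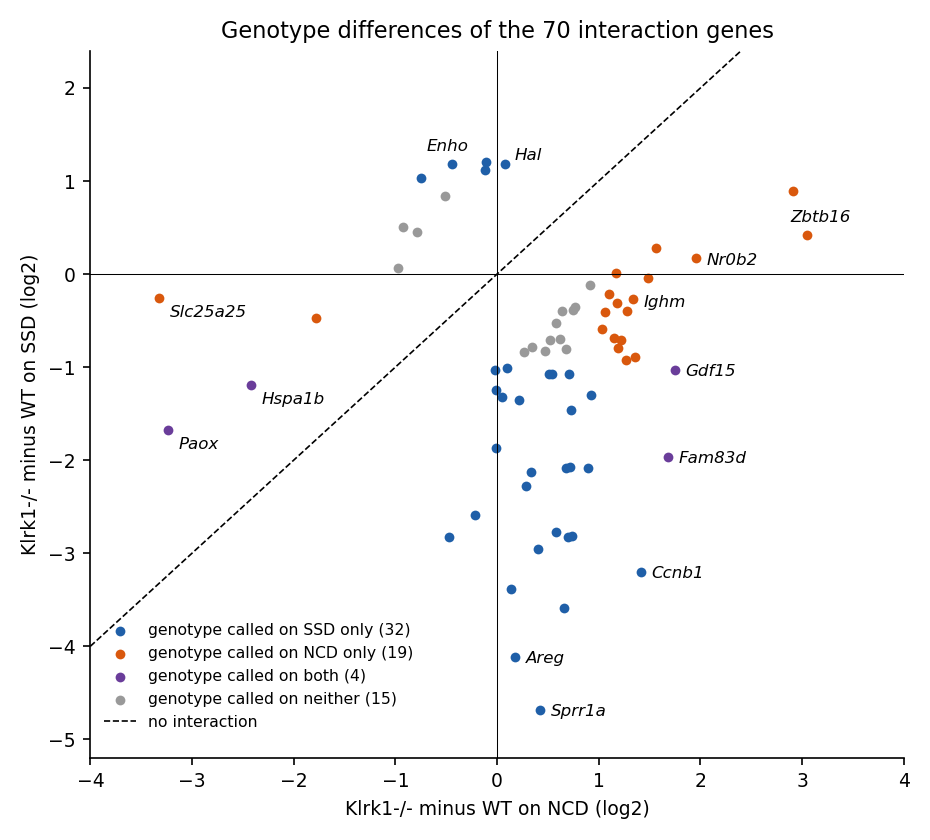
Log2 difference between Klrk1-/- and WT mice on NCD (x axis, 4 against 4 mice) and on SSD (y axis, 3 against 5 mice) for the 70 genes with a called interaction, coloured by the diet on which the genotype difference was called. The 32 blue genes lie beyond 1 in either direction on SSD and mostly within 1 on NCD, and the 19 orange genes lie beyond 1 on NCD and within 1 on SSD; the dashed line marks no interaction.

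Of 20 tested genes on a list for recruited and lipid-associated macrophages, 13 rose on SSD in WT mice and 6 in Klrk1-/- mice, and 1 fell in each. Their interaction was called, and negative, for 3, Lgals3, Cd68 and Mmp12. Galectin-3 (Lgals3, ENSMUSG00000050335, chromosome 14, 47605208 to 47623617, plus strand), a sugar-binding protein of activated macrophages, had 128, 128, 103 and 127 normalized counts in WT mice on NCD and 2088, 891, 635, 577 and 718 on SSD. In Klrk1-/- mice it had 169, 156, 149 and 122 on NCD and 212, 179 and 147 on SSD. All 5 WT mice on SSD lay above the other 11 mice, and the diets overlapped in Klrk1-/- mice. The log2 diet effect was 2.83 (adjusted p = 3.32e-07) in WT mice and 0.26 (adjusted p = 0.57) in Klrk1-/- mice, an interaction of -2.57 (SE 0.40, 95% interval -3.41 to -1.73, adjusted p = 0.00824). Cd68, a lysosomal protein of macrophages (chromosome 11, 69555039 to 69556979, minus strand), went from 172, 166, 211 and 229.5 to 1145, 554, 531, 776 and 726 in WT mice. In Klrk1-/- mice it went from 229.8, 255, 218 and 199 to 291, 271 and 276. Its diets did not overlap in either genotype, and the interaction was -1.57 (SE 0.26, adjusted p = 0.0107). For Mmp12, the macrophage elastase (chromosome 9, 7344381 to 7369499, plus strand, overlapping Mmp1b), the counts were 9.65, 4.03, 3.91 and 7.72 on NCD and 1060.2, 252, 188, 107 and 158 on SSD in WT mice. The Klrk1-/- mice had 9.19, 6.22, 8.71 and 3.69 on NCD and 33.8, 22.5 and 14.6 on SSD. Mmp12 rose in both genotypes, by 5.14 and 1.62 on the log2 scale, and the interaction was -3.52 (SE 0.76, adjusted p = 0.034). It kept its call in 7 of 16 fits that left out 1 mouse, with adjusted p-values up to 0.123, where Lgals3 and Cd68 kept theirs in all 16. Without both Klrk1-/- NCD mice 2 and 3 the calls of Lgals3 and Cd68 were lost, at interactions of -2.53, adjusted p = 0.0634, and -1.51, adjusted p = 0.0672. With edgeR on the recovered reads that of Mmp12 was lost (adjusted p = 0.167).

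The median interaction of these 20 genes of recruited and lipid-associated macrophages was -1.15 against 0.0004 over all genes tested. Of the 20, 18 had a negative interaction and 10 an unadjusted p under 0.05, against 2256 of 13068 over all genes tested. The summed count of the list was 15508, 15446, 18653 and 16246 in WT mice on NCD and 45429, 20234, 18608, 19498 and 16579 on SSD, and 16048, 17999, 15146 and 13865 on NCD and 15173, 13919 and 14007 on SSD in Klrk1-/- mice. Mouse 1 of the WT SSD group was far above the rest in this sum, while WT SSD mice 3 and 5 lay within the range of the WT mice on NCD. Without mouse 1 the list median was -0.82, with 16 of 20 members negative, and Lgals3 and Cd68 had interactions of -2.25 and -1.41. The 5 Kupffer cell markers, none of them under a mean of 10, summed to 10737, 5235, 4940.2, 9033 and 4967 in the WT mice on SSD and to 4749.6, 3666 and 3859.6 in the Klrk1-/- mice on SSD, against 3393 to 3696 and 2940 to 3642 on NCD. Among Kupffer cell genes, 13 tested, none had a called interaction (median -0.25); the scavenger receptor Marco was at -1.68, adjusted p = 0.0964, Cd5l at -0.89, adjusted p = 0.182 and Timd4 at -0.73, adjusted p = 0.203. In whole liver, fewer cells of a type and less RNA per cell cannot be told apart. Whether the RNA of the list came from resident or recruited macrophages was not tested.

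**Figure D3:**
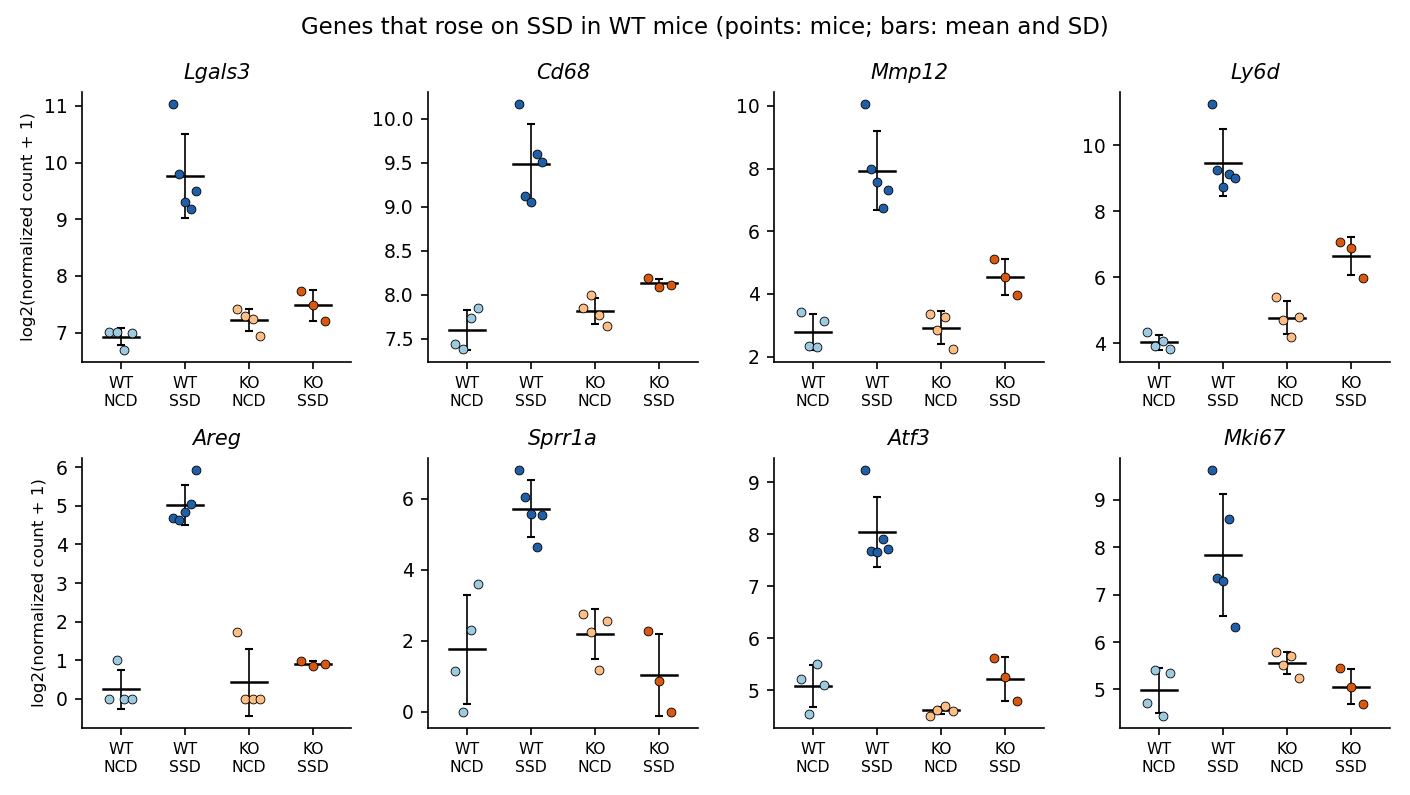
Log2(normalized count + 1) of 8 genes in each of the 16 mice by genotype (KO is Klrk1-/-) and diet, with the group mean and SD. In each panel the WT mice on SSD lie above the Klrk1-/- mice on SSD, and WT SSD mouse 1 is the highest point for Lgals3, Cd68, Mmp12, Ly6d, Sprr1a, Atf3 and Mki67.

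The cell division genes Mki67, Top2a and Ckap2l rose on SSD in WT mice and were not called for diet in Klrk1-/- mice. The promoters of these 3 are shown, to let the motifs of cell cycle genes be seen. That of Areg is added, a growth factor gene that was also called for diet only in WT mice. Each is the 250 bases before the transcription start in the RefSeq promoter table, placed on GRCm39 by exact match. Capitals mark the motif TTTGAA, the core of the cell cycle homology region through which many mitotic genes are held silent in resting cells, the CCAAT box, and the cAMP response element TGACGTCA, each on either strand.
Mki67 promoter: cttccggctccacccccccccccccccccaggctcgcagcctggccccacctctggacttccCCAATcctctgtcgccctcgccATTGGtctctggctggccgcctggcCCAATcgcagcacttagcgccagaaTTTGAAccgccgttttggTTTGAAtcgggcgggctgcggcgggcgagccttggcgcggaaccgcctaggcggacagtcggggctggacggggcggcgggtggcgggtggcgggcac
Top2a promoter: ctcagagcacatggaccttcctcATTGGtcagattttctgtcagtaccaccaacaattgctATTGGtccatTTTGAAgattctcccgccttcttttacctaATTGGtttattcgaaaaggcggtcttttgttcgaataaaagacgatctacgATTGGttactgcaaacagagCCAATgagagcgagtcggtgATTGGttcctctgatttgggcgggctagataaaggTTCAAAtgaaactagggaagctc
Ckap2l promoter: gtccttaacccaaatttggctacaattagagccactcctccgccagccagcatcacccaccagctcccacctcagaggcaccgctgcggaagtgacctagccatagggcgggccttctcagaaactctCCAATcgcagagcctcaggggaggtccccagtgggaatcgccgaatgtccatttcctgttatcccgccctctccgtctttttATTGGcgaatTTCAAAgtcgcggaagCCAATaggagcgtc
Areg promoter: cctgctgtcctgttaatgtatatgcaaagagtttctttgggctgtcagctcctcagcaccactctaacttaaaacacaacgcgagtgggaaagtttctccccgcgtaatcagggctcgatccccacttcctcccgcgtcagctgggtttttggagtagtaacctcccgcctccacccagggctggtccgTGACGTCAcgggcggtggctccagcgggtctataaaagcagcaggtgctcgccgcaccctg
They lie at chr7:135318109-135318358 (minus strand), chr11:98915016-98915265 (minus strand), chr2:129139133-129139382 (minus strand) and chr5:91287208-91287457 (plus strand) and are printed in the direction of transcription. Mki67 and Top2a each hold 2 copies of TTTGAA, Ckap2l holds 1 and Areg none, while CCAAT occurs 3, 6, 3 and 0 times; Areg holds 1 copy of TGACGTCA. Of 32851 promoters of this length, 16% held TTTGAA, 33.8% CCAAT, 5.55% both and 1.55% TGACGTCA; matches of different motifs may share an end letter. For 19 of the mitosis genes on the list a promoter was found, and of their 21 promoters 10 held TTTGAA, 18 CCAAT, 10 both and 1 TGACGTCA. Over the 57 called genes with a promoter in the table, 10 of 73 promoters held TTTGAA, 31 CCAAT and 3 TGACGTCA. A match of letters is a description of the sequence and not a bound site.

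Mki67, which encodes the proliferation antigen Ki-67 (ENSMUSG00000031004, chromosome 7, 135291513 to 135318090, minus strand), had 25.3, 41.3, 20.9 and 39.7 normalized counts in WT mice on NCD and 788, 162, 154, 387 and 79.2 on SSD. Klrk1-/- mice had 54.00, 44.8, 50.99 and 36.9 on NCD and 42.5, 32.1 and 24.9 on SSD. Every WT mouse on SSD exceeded the other 11 mice, and the spread among the 5 was wide. The interaction was -3.36 (SE 0.69, 95% interval -4.81 to -1.90, adjusted p = 0.0277). Topoisomerase II alpha (Top2a, chromosome 11, 98883769 to 98915015, minus strand) showed the same order, with 27.7, 41.3, 27.4 and 35.3 on NCD and 296, 138, 127, 243 and 59.6 on SSD in WT mice. In Klrk1-/- mice it had 34.5, 24.9, 37.3 and 18.5 on NCD and 27.04, 29.7 and 17.1 on SSD, and its interaction was -2.37 (SE 0.54, adjusted p = 0.0452). Cyclin B1 (Ccnb1, chromosome 13, 100915158 to 100923078, minus strand), which starts mitosis with its kinase, had 175, 51.5, 28.6, 110.2 and 15.5 in WT mice on SSD against 8.69, 4.02 and 3.43 in Klrk1-/- mice on SSD, and 49.4, 9.95, 16.2 and 6.15 in Klrk1-/- mice on NCD. Its interaction was -4.61 (SE 0.97, adjusted p = 0.0303) and is uncertain in size. Processed copies of this gene may share its reads, and their part was not tested. The spindle genes Ckap2l (chromosome 2, 129110130 to 129139132, minus strand) and Fam83d (chromosome 2, 158610013 to 158628557, plus strand) had interactions of -4.25 (SE 0.89, adjusted p = 0.0303) and -3.65 (SE 0.68, adjusted p = 0.0172). Of the Klrk1-/- mice on SSD, 2 of 3 were at 3 reads or fewer for Ckap2l. The fitted sizes of these genes with few reads depend on the pseudocount: with 10 in place of 1 they were -2.93 for Ccnb1 and -2.54 for Ckap2l, both no longer called (adjusted p = 0.0594 and 0.0627), and -1.74 for Fam83d. Fam83d was higher in Klrk1-/- mice on NCD, at 13.8, 7.47, 7.46 and 7.38, than in WT mice, at 2.41, 4.03, 1.30 and 1.10, of which 3 were at the floor of 3 reads. Its call was lost without Klrk1-/- SSD mouse 1 or 3, at adjusted p-values up to 0.053.

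Of 24 mitosis genes on the list, 23 were tested, and all 23 had a negative interaction, 22 with an unadjusted p under 0.05 and 3 called (Mki67, Top2a and Ccnb1). All 23 were called higher on SSD in WT mice, with a median log2 effect of 2.26, and none was called in Klrk1-/- mice, with a median of -0.10. The median interaction was -2.36, and 21 of the 23 were called lower in Klrk1-/- than in WT mice on SSD, against none on NCD. Every WT mouse on SSD exceeded every WT mouse on NCD for 15 of the 23 genes, where 13.4% of all genes tested did so, and exceeded every Klrk1-/- mouse on SSD for 17, where 8.6% did. In Klrk1-/- mice no mitosis gene was separated upward by the diet, where 17.9% of all genes were. The summed count of the 23 genes was 306, 429, 378 and 462 in WT mice on NCD and 5316, 1547, 1320.0, 3741 and 649 on SSD, and 505, 431, 511 and 396 on NCD and 476, 376 and 328 on SSD in Klrk1-/- mice. The sum was widely spread among WT mice on SSD, and WT SSD mouse 1 was the highest of all mice for 18 of the 23 genes. Mice 1 and 4 of that group had the highest sums of the list, and also of the Kupffer cell markers given above and of 6 T and NK cell markers, which summed to 143, 74.3, 75.2, 111 and 84.9 in the WT mice on SSD. The part of these cells in the result of the list was not tested. Without mouse 4 the median interaction was -2.12, with all 23 negative. Without mouse 1 all 23 interactions were still negative, with a median of -1.98, and Mki67 and Top2a were at -2.91 and -2.13. Mki67 kept its call in 7 of 16 fits that left out 1 mouse, Top2a in 3 of 16, Ccnb1 in 8 of 16 and Ckap2l in 8 of 16, with adjusted p-values up to 0.148. With edgeR the calls of Top2a and Ckap2l were lost.

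The genes of DNA replication had smaller interactions. Of 23 tested, 18 had a negative interaction, with a median of -0.35, and 2 were called, both subunits of the replicative helicase. Mcm6 (chromosome 1, 128259327 to 128287401, minus strand) had 80.8, 95.6, 67.8 and 88.3 on NCD and 246, 175, 156, 249 and 135 on SSD in WT mice. In Klrk1-/- mice Mcm6 had 70.1, 88.3, 74.6 and 98.4 on NCD and 81.1, 74.7 and 78.00 on SSD. The interaction was -1.24 (SE 0.27, adjusted p = 0.034). Mcm3 (chromosome 1, 20873192 to 20890536, minus strand) was at -1.11 (SE 0.24, adjusted p = 0.0356), with WT mice on SSD at 163 ± 32.1 (SD, n = 5) and the other groups between 79.5 and 91.1 on average. The catalytic subunit of DNA polymerase epsilon, Pole (chromosome 5, 110434172 to 110485340, plus strand), was called as well (-1.59, adjusted p = 0.0121), but here the fall in Klrk1-/- mice was the called part, from 63.2, 54.7, 53.5 and 43.1 to 26.1, 28.9 and 23.1. The WT values of Pole were 28.9, 46.3, 43.01 and 32.00 on NCD and 53.8, 50.7, 52.3, 71.1 and 53.1 on SSD. The genes Mcm6 and Mcm3 kept their calls in 8 of 16 and 4 of 16 fits without 1 mouse. Cdkn1a, which encodes the cell cycle inhibitor p21 (chromosome 17, 29309950 to 29319701, plus strand), rose on SSD in WT mice from 254, 408, 499 and 296 to 2985, 2013, 2081, 1997 and 1375. Without NKG2D it was already higher on NCD, at 1330.3, 804, 772 and 621, and had 1499, 619 and 1316 on SSD. The genotype difference was 1.26 (adjusted p = 0.00904) on NCD, and the interaction -2.19 (SE 0.41, adjusted p = 0.0181).

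Areg, Sprr1a and Atf3 rose on SSD in WT mice and were not called for diet in Klrk1-/- mice. Amphiregulin (Areg, ENSMUSG00000029378, chromosome 5, 91287458 to 91296291, plus strand), a ligand of the EGF receptor, had 0, 1.01, 0 and 0 normalized counts in WT mice on NCD and 24.6, 23.7, 27.6, 31.98 and 59.6 on SSD, against 2.30, 0, 0 and 0 on NCD and 0.966, 0.803 and 0.857 on SSD in Klrk1-/- mice. All mice outside the WT SSD group were at 3 reads or fewer, and the fitted interaction of -4.29, adjusted p = 0.0172 therefore depends on the pseudocount and is no bound. Sprr1a, a cornified envelope protein (chromosome 3, 92391259 to 92393202, minus strand), had 111, 65.9, 46.6, 23.98 and 45.7 in WT mice on SSD and 0 to 11.03 in all others, with a fitted interaction of -5.11, adjusted p = 0.0221, on which the same limit bears. The transcription factor Atf3 (chromosome 1, 190902493 to 190950236, minus strand), an early gene of many stresses, had 36.2, 22.2, 44.3 and 33.1 on NCD and 601, 204, 202, 239.8 and 209 on SSD in WT mice. The Klrk1-/- mice had 21.8, 23.6, 24.9 and 23.4 on NCD and 48.3, 36.9 and 26.6 on SSD. Its WT mice on SSD lay above all others, and the interaction was -2.35 (SE 0.43, 95% interval -3.25 to -1.44, adjusted p = 0.0166). Without Klrk1-/- SSD mouse 3 the calls of Areg, Sprr1a and Atf3 were lost, at adjusted p-values of 0.0515, 0.0769 and 0.0581. With edgeR on the recovered reads those of Areg and Sprr1a were lost, at adjusted p-values of 0.146 and 0.0786.

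Ly6d, a small membrane-anchored surface protein (chromosome 15, 74633905 to 74635469, minus strand), was raised in both genotypes, more so in WT mice. It went from 19.3, 14.1, 15.6 and 13.2 to 2421, 607, 422, 564 and 514 in WT mice. Without NKG2D Ly6d went from 41.4, 24.9, 17.4 and 27.1 to 134, 117 and 62.6. The interaction of Ly6d was -3.56 (SE 0.59, adjusted p = 0.0107), a call that was lost with edgeR (adjusted p = 0.0609) and with no other setting tried. Ubd, the ubiquitin-like modifier FAT10 (chromosome 17, 37504783 to 37506986, plus strand), had 504, 95.5, 82.8, 91.5 and 60.4 in WT mice on SSD against 12.6, 16.1 and 18.9 in Klrk1-/- mice (-3.53, adjusted p = 0.0254), and kept its call in 12 of 16 fits without 1 mouse but not with edgeR (adjusted p = 0.0803). WT SSD mouse 1 was the highest for both genes, and without it the interactions were -3.12 and -3.01. The stress cytokine Gdf15 (ENSMUSG00000038508, chromosome 8, 71082043 to 71085106, minus strand) followed another course. WT mice had 56.7, 70.5, 117 and 103 on NCD and 761, 656, 397, 851 and 454 on SSD, while Klrk1-/- mice had 289.5, 200.3, 339.5 and 322 on NCD and 267, 369 and 256 on SSD. The Klrk1-/- mice on both diets thus lay above the NCD-fed and below the SSD-fed WT mice without overlap. The interaction of -2.77 (SE 0.37, 95% interval -3.54 to -2.01, adjusted p = 0.0019) kept its call in all settings tried. Gdf15 and Atf3 were the called members among 20 tested genes of the ATF4 and unfolded protein response, whose median interaction was -0.22, with 11 negative and 9 positive. On SSD 9 of these 20 rose and 4 fell in WT mice, and 3 rose and 2 fell in Klrk1-/- mice.

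Another group of genes differed between genotypes already on NCD. Zbtb16, which encodes the zinc finger factor PLZF, known from innate-like lymphocytes and as a target of glucocorticoids (ENSMUSG00000066687, chromosome 9, 48565597 to 48747522, minus strand), had 113, 141, 111 and 140.1 normalized counts in WT mice on NCD and 1313, 805, 1402 and 811 in Klrk1-/- mice on NCD. On SSD the WT mice had 479.6, 542, 496, 449 and 647 and the Klrk1-/- mice 745, 482 and 940.3, which overlap. The interaction was -2.63 (SE 0.29, 95% interval -3.24 to -2.01, adjusted p = 0.000338), with a rise of 2.04 on the log2 scale in WT mice and -0.59 (adjusted p = 0.0595) in Klrk1-/- mice. Slc25a25, a carrier of ATP-Mg across the inner mitochondrial membrane (chromosome 2, 32304499 to 32341457, minus strand, overlapping Naif1), was the gene whose diet effects were called in opposite directions. It fell from 7612, 7400.2, 8818 and 6219 to 2659.8, 2293, 2464, 2655 and 3578 in WT mice and rose from 1560.1, 829, 443 and 538 to 2298, 2008 and 2471 in Klrk1-/- mice, an interaction of 3.06 (SE 0.38, 95% interval 2.26 to 3.86, adjusted p = 0.00111). The genotypes were -3.32 apart on NCD (log2, Klrk1-/- minus WT) and overlapped on SSD. Paox, the polyamine oxidase of peroxisomes (chromosome 7, 139695712 to 139717137, plus strand, overlapping Echs1), had the smallest adjusted p of all genes. Its counts were 773, 834, 815 and 771 on NCD and 192, 247, 253, 232 and 229 on SSD in WT mice. The Klrk1-/- mice had 89.6, 89.6, 85.8 and 71.3 on NCD and 63.7, 69.1 and 81.4 on SSD. Paox was thus lower in every Klrk1-/- mouse than in every WT mouse on either diet, the diet lowered it in WT mice, and the interaction was 1.56 (SE 0.16, adjusted p = 0.00025).

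A called genotype difference on NCD and an overlap on SSD were also found for Arhgef26 (-1.67, adjusted p = 0.00193) and for Ndrg1, a gene of differentiation and hypoxia (-1.32, adjusted p = 0.00824). The same held for Gin1 (-1.49, adjusted p = 0.0107) and for Nr0b2, the bile acid-induced repressor SHP (-1.78, adjusted p = 0.0158). Cdkn1a, Apoa4, Acot2, Lpin1, Sik1 and Ighm had this form too. Nr0b2 (chromosome 4, 133280687 to 133283847, plus strand) had 668, 619, 515 and 802 on NCD and 1228, 2097, 1777, 1191 and 1246 on SSD in WT mice, against 3059, 2128, 2355 and 2518 on NCD and 2216, 1005 and 2013 on SSD in Klrk1-/- mice. The Klrk1-/- mice on NCD were all above the WT mice on either diet. Arhgef26 (chromosome 3, 62245765 to 62369642, plus strand) averaged 349 ± 35.7 (SD, n = 4) in chow-fed WT mice and 879 ± 169 (SD, n = 5) in those fed SSD. Without NKG2D it averaged 858 ± 168 (SD, n = 4) when chow-fed and 662 ± 78.6 (SD, n = 3) on SSD. The immunoglobulin heavy chain Ighm (chromosome 12, 113382178 to 113386350, minus strand) of B and plasma cells fell on SSD in both genotypes, from 428, 687, 1105 and 723 to 201, 150.4, 177, 199.9 and 154 in WT mice. Without NKG2D it went from 2030.0, 1507, 1699 and 1871 to 140.0, 130.1 and 169. The levels on SSD overlapped, and the interaction of -1.61 (SE 0.29, adjusted p = 0.0156) goes with the higher level of Klrk1-/- mice on NCD. The 3 B cell markers summed to 33.8 to 84.6 in WT and 55.1 to 113 in Klrk1-/- mice on NCD, groups that overlap, and their part in the Ighm difference was not tested.

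**Figure D4:**
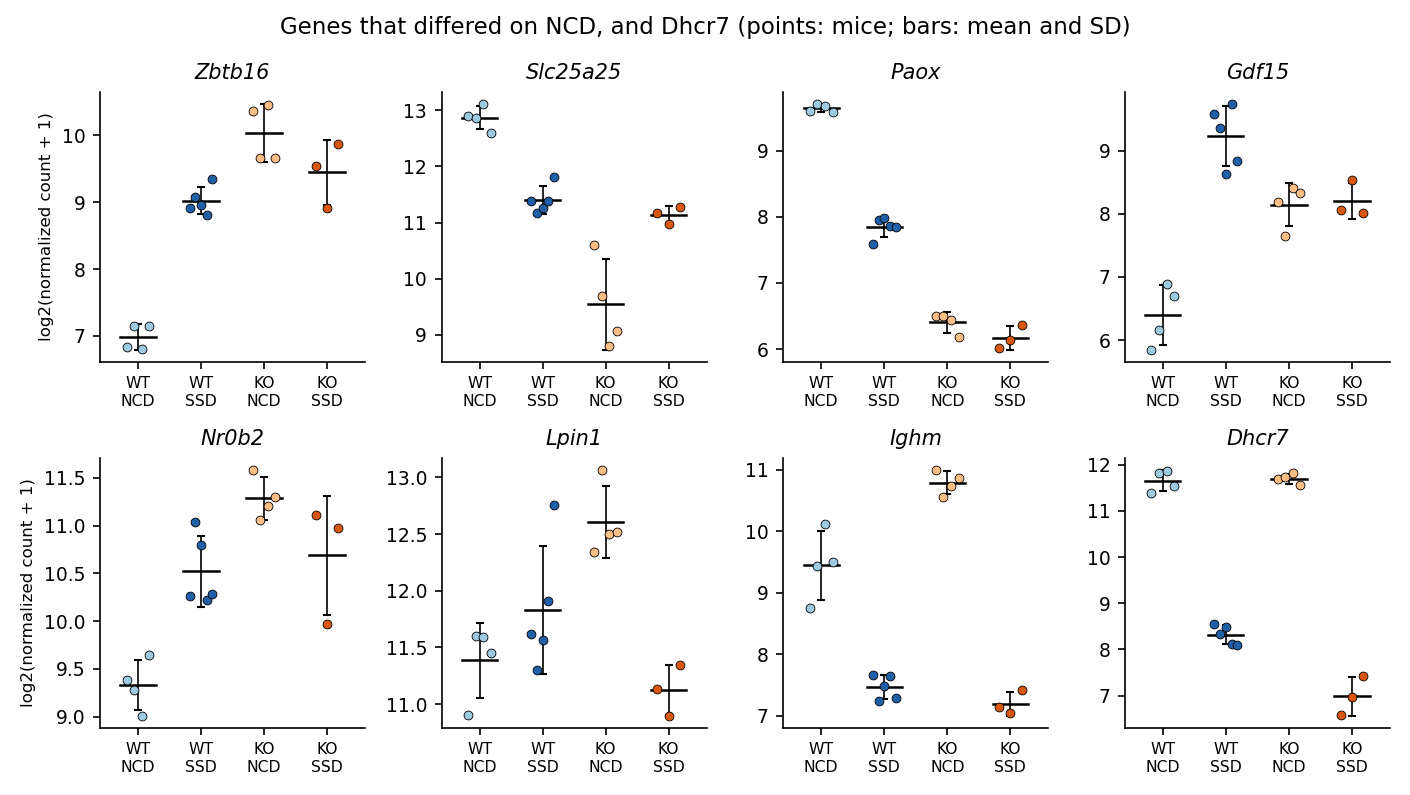
Log2(normalized count + 1) of 8 genes in each of the 16 mice by genotype (KO is Klrk1-/-) and diet, with the group mean and SD. The genotypes are apart on NCD in the first 7 panels, and for Zbtb16, Slc25a25, Nr0b2, Lpin1 and Ighm they overlap on SSD, while Dhcr7 overlaps on NCD and is lower in Klrk1-/- mice on SSD.

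Among genes of lipid handling, single members differed in their diet response and the medians of the lists lay near 0. Of 24 genes of cholesterol synthesis, 23 were called lower on SSD in WT mice and 22 in Klrk1-/- mice, with median log2 effects of -2.69 and -2.51 and a median interaction of 0.14. Dhcr7, the reductase of the last step (chromosome 7, 143376882 to 143402147, plus strand), was the called member. It fell from 2684, 3634, 3707 and 2968 to 374, 319, 359, 277 and 274 in WT mice. Without NKG2D it went from 3313, 3403, 3599 and 2999 to 94.6, 124 and 171. The genotypes overlapped on NCD and were apart on SSD, and the interaction was -1.37 (SE 0.22, 95% interval -1.84 to -0.91, adjusted p = 0.00963). The lipins Lpin1 and Lpin2, phosphatidate phosphatases of triglyceride synthesis, were both called, at -1.93, adjusted p = 0.0158, and -1.03, adjusted p = 0.0138. Lpin1 (chromosome 12, 16585670 to 16696967, minus strand) had 1913, 3103, 3079 and 2802 on NCD and 3141, 2522, 3024, 3853 and 6932 on SSD in WT mice. Without NKG2D it fell from 5198, 8557, 5796 and 5878 to 2239.6, 1909.7 and 2595, while the diets overlapped in WT mice. Lpin2 (chromosome 17, 71489555 to 71556812, plus strand) kept its call in 12 of 16 fits without 1 mouse. Aqp8, a water channel of hepatocytes (chromosome 7, 123061514 to 123067227, plus strand), fell in Klrk1-/- mice from 6902, 6382, 10505 and 7668 to 1489, 1386 and 1325. In WT mice it had 5006, 4916, 5325 and 4093 on NCD and 2854, 2823, 2447, 2029.8 and 2189 on SSD, a log2 difference of -0.98, under the fold limit. Its genotypes were apart in opposite directions on the 2 diets, and the interaction was -1.49 (SE 0.20, adjusted p = 0.00193).

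Apolipoprotein A-IV, Acot2 and Cidec rose on SSD in both genotypes and less so in Klrk1-/- mice. Apoa4 (chromosome 9, 46151994 to 46154757, plus strand, overlapping Gm47528) went from 3314, 4447, 4063 and 4608 to 86599, 37963, 35265, 46030.5 and 54807 in WT mice. Without NKG2D Apoa4 went from 11720.4, 10093, 7851 and 7278 to 37747, 27364 and 27954. The interaction of Apoa4 was -1.84 (SE 0.32, adjusted p = 0.015). It was higher in Klrk1-/- mice on NCD and overlapped between genotypes on SSD. The acyl-CoA thioesterase Acot2 (chromosome 12, 84034635 to 84040647, plus strand) was at -1.62 (SE 0.32, adjusted p = 0.024), with the reservation that close relatives of the gene share its sequence. Acot2 had 36.2, 47.3, 23.5 and 33.1 on NCD and 542, 431, 272, 425 and 346 on SSD in WT mice. Without NKG2D it had 64.3, 57.2, 103 and 65.2 on NCD and 283, 259 and 241 on SSD. Its call was kept in 13 of 16 fits without 1 mouse and lost without each of the Klrk1-/- mice on SSD. Cidec, a lipid droplet protein (chromosome 6, 113401595 to 113412721, minus strand), had 28.9, 22.2, 9.12 and 18.8 on NCD and 1155, 1407, 952, 608 and 519 on SSD in WT mice. Values in Klrk1-/- mice were 48.3, 28.6, 11.2 and 18.5 on NCD and 231, 171 and 197 on SSD. Its interaction of -2.45 (SE 0.56, adjusted p = 0.0485) kept the call in 2 of 16 fits without 1 mouse and lost it with edgeR. Cidec is also a gene of fat cells, and the 4 adipose markers summed to 12.6, 1257, 1135, 77.3 and 92.3 in the WT mice on SSD and to at most 32.9 in every other mouse, with 3 of the 4 under a mean of 10 in the WT SSD group; their part in the Cidec result was not tested. Of 24 tested PPAR-alpha targets and genes of fatty acid oxidation, 10 rose in WT mice and 9 in Klrk1-/- mice, and their median interaction was 0.12.

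Among the 13 positive interactions were the 6 genes that fell on SSD in WT mice and were not called in Klrk1-/- mice (Paox, Hal, Enho, Dclk3, Ankrd9 and Sik1) and the 2 that rose only in Klrk1-/- mice. Histidine ammonia-lyase (Hal, ENSMUSG00000020017, chromosome 10, 93324630 to 93355166, plus strand), which opens histidine breakdown, had 11565, 11056, 9643 and 9611 normalized counts on NCD and 2950.1, 4066, 4270.2, 2959 and 3732 on SSD in WT mice. Values in Klrk1-/- mice were 10699, 10008, 11597 and 11704 on NCD and 7966, 6927 and 9498 on SSD. All Klrk1-/- mice on SSD exceeded all WT mice on SSD, and the interaction was 1.11 (SE 0.18, 95% interval 0.72 to 1.49, adjusted p = 0.0107); it was 0.99, under the fold limit, without Klrk1-/- SSD mouse 3 and also with quantile normalization. Hal was the called member of 22 tested genes of amino acid catabolism and the urea cycle, of which 21 had a positive interaction and 16 an unadjusted p under 0.05, with a median of 0.50. In WT mice 11 of the 22 were called lower on SSD and in Klrk1-/- mice 6, with median log2 effects of -1.08 and -0.56. Summed over the list, counts were 219640.0, 224215, 239732, 211429 and 233972 in WT and 282855, 256354 and 309386 in Klrk1-/- mice on SSD, against 444179 to 538920.0 and 413875 to 495638 on NCD. The 9 hepatocyte markers, of which Cps1 is also on this list, moved with it. They summed to 1498280 to 1905030 in WT and 2006110 to 2168790 in Klrk1-/- mice on SSD, which do not overlap, and to 2288010 to 2586250 and 2184750 to 2907950 on NCD, which do. None of the 9 had a called interaction (median 0.20, 6 positive), and their part in the result of the list was not tested. The list median was 0.41 with every mouse scaled to the same total and 0.29 with quantile normalization. Liver glutaminase Gls2, of the same list, had an adjusted p under 0.05 and an interaction under the fold limit (0.64, adjusted p = 0.0176).

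The heat shock gene Hspa1b (chromosome 17, 35175412 to 35178214, minus strand) was lower in Klrk1-/- mice on both diets, with 1387, 885, 885 and 1245 on NCD and 658, 707, 667, 653 and 863 on SSD in WT mice against 221, 184, 205 and 197 on NCD and 227, 437 and 292 on SSD in Klrk1-/- mice. Its interaction was 1.22 (SE 0.25, adjusted p = 0.0277), and it shares nearly all of its sequence with Hspa1a, so that reads can be split between them. Of 14 heat shock chaperone genes, 12 had a positive interaction, with a median of 0.34, and 6 were called lower in Klrk1-/- mice on NCD and 2 on SSD. Enho, which encodes the secreted peptide adropin (chromosome 4, 41638144 to 41640324, minus strand, overlapping Dnai1), fell in WT mice from 684, 549.7, 837 and 565 to 98.3, 90.4, 155, 183 and 197 and had 414, 480.3, 483 and 541 on NCD and 353, 307 and 286 on SSD in Klrk1-/- mice (1.63, adjusted p = 0.0172). Id2, an inhibitor of helix-loop-helix factors (chromosome 12, 25143798 to 25147139, minus strand), rose in Klrk1-/- mice alone, from 1194, 2017, 2499.7 and 1942 to 4785, 4460.2 and 3368, while WT mice had 2569, 1772, 1816 and 1985 on NCD and 2187, 2047, 1913, 2027 and 1494 on SSD (1.24, adjusted p = 0.034). The ciliary gene Fbf1 (chromosome 11, 116033111 to 116058992, minus strand) also rose in Klrk1-/- mice alone, from 196 ± 26.7 (SD, n = 4) to 447 ± 82.4 (SD, n = 3). In WT mice on NCD it had 287 ± 90.7 (SD, n = 4) and on SSD 247 ± 25.1 (SD, n = 5), and the interaction was 1.36, adjusted p = 0.0158. Zfpm1, the GATA cofactor FOG1, was at 1.03, adjusted p = 0.00245, just past the fold limit, and kept its call in 13 of 16 fits that left out 1 mouse. It fell under that limit without WT NCD mouse 5 (0.95), Klrk1-/- NCD mouse 3 (0.97) or Klrk1-/- SSD mouse 3 (0.99), with the same total in every mouse (0.94) and with quantile normalization (0.99). The same happened with array weights, by a margin under the rounding used here, and without both Klrk1-/- NCD mice 2 and 3 (0.96). The kinase genes Dclk3 and Sik1 were at 1.24, adjusted p = 0.0254, and 1.30, adjusted p = 0.0362. Sik1 fell from 738, 672, 1006 and 678 to 539, 249, 318, 439.7 and 415 in WT mice, where Klrk1-/- mice had 241, 202, 279 and 178 on NCD and 293, 255 and 270.0 on SSD. Gse1 and Ankrd9 were at 1.43, adjusted p = 0.0303, and 1.78, adjusted p = 0.034. Leaving out Klrk1-/- SSD mouse 1 ended the call of Enho (adjusted p = 0.0552) and leaving out mouse 3 that of Fbf1 (adjusted p = 0.0581). The other calls were less firm: Id2 kept its call in 9 of 16 fits that left out 1 mouse, Hspa1b and Dclk3 in 11 of 16 each, Gse1 in 9 of 16, Sik1 in 7 of 16 and Ankrd9 in 6 of 16.

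Of 9 lists of inflammation and fibrosis, 7 had a negative median interaction and 2, acute phase proteins and neutrophil genes, a median just above 0. Their called members were Areg and Mmp12. Of 22 collagen and matrix genes, 21 had a negative interaction, with a median of -0.58, 1 had an unadjusted p under 0.05 and none was called. Their median log2 diet effect was 0.99 in WT mice, where 9 rose, and 0.44 in Klrk1-/- mice, where none was called. The summed counts were 71445, 40682, 44046, 38036 and 32579 in the WT mice on SSD, of which mouse 1 is the highest, and 34837, 33571 and 33157 in the Klrk1-/- mice on SSD. On NCD they were 32754, 36955, 35359.5 and 30356 in WT mice and 28097, 30060.0, 26438 and 30696 in Klrk1-/- mice. In Klrk1-/- mice the sums were thus higher on SSD without overlap, while WT SSD mouse 5 lay within the range of the WT mice on NCD. Without WT SSD mouse 1 the median was -0.32, with 17 of 22 negative. Of 23 chemokines and their receptors, 20 were negative (median -0.61) and 8 had an unadjusted p under 0.05. The interferon-induced Cxcl9 and Cxcl10 were at -1.07, adjusted p = 0.0958, and -1.07, adjusted p = 0.132. Cxcl12 had an adjusted p under 0.05 below the fold limit, in the other direction (0.63, adjusted p = 0.0426). All 16 antigen presentation genes (median -0.40) and 23 of 25 interferon-stimulated genes (median -0.50) were negative, with none called. An unadjusted p under 0.05 was found for 3 of the 16 and 9 of the 25. Gbp3 was at -1.14, adjusted p = 0.0948 and Usp18 at -1.0, adjusted p = 0.107. WT SSD mouse 4 stood apart in the summed count of the interferon-stimulated genes, at 25485, where the other 4 WT mice on SSD had 19088 to 19373, within the 18629 to 20101 of the WT mice on NCD. In Klrk1-/- mice the sums were 18592 to 21492 on NCD and 17364 to 17484 on SSD. Without WT SSD mouse 4 the median interaction of this list was -0.40, with 22 of 25 negative. Over all genes tested 49.9% were negative, and 2256 of 13068 had an unadjusted p under 0.05. The antigen presentation list, with 3 of 16, lay near that share, and the collagen list, with 1 of 22, below it. Areg was the called member of 12 tested genes of IL-17 receptor signalling and its targets, of which 8 were negative (median -0.45). Of the 12, 6 had an unadjusted p under 0.05. Between Klrk1-/- and WT mice on SSD, 5 of them were called lower and none higher. Of 23 genes of stellate cell activation and remodelling, 18 were negative (median -0.35), and Mmp12 was the called one. An unadjusted p under 0.05 was found for 4 of the 23, near the share over all genes tested. Among cytokines and genes of the inflammasome and TNF family, 16 of 19 were negative (median -0.51). None was called, and 8 had an unadjusted p under 0.05. Acute phase proteins, with 13 of 24 positive (median 0.08), and the 4 tested neutrophil genes, 2 of them positive (median 0.04), had no called member. An unadjusted p under 0.05 was found for 7 of the 24 and 1 of the 4.

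**Figure D5:**
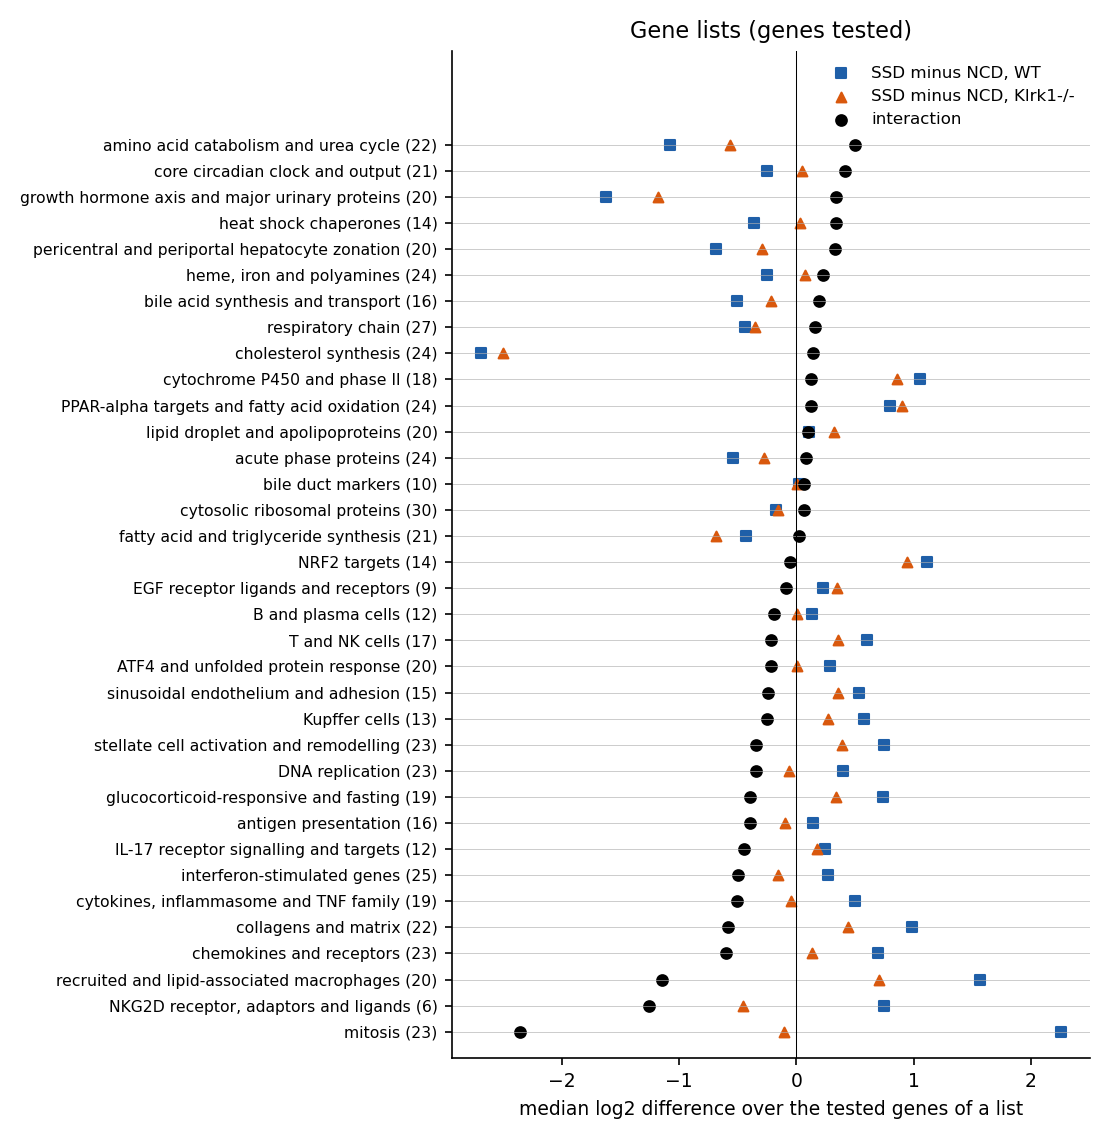
Median log2 difference over the tested genes of each list (number of genes in brackets) for the diet effect in WT mice (blue squares), in Klrk1-/- mice (orange triangles) and the interaction (black points). The mitosis list lies at the bottom with an interaction of -2.36, and cholesterol synthesis has the largest diet effects and an interaction near 0. Amino acid catabolism has an interaction of 0.50.

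The genes that the study itself names were measured in the same contrast. They were picked on these samples and are not independent evidence of a direction. Of 11 such genes 10 were tested, 9 had a negative interaction, with a median of -0.63, and none was called. Klrk1 is counted among these negative ones, although it cannot follow the diet where it is knocked out. The neutrophil chemokine Cxcl2 (chromosome 5, 91051730 to 91053797, plus strand) had 12.1, 8.05, 18.2 and 13.2 on NCD and 39.2, 17.7, 17.1, 8.88 and 8.16 on SSD in WT mice. Values in Klrk1-/- mice were 9.19, 8.71, 6.22 and 9.84 on NCD and 1.93, 4.02 and 1.71 on SSD. It was lower in each Klrk1-/- mouse than in each WT mouse on SSD, and its interaction was -1.76 (SE 0.62, 95% interval -3.07 to -0.44, adjusted p = 0.174), on few reads, with 2 of 3 Klrk1-/- mice on SSD at 3 or fewer. The monocyte chemokine Ccl2 was at -1.31 (SE 0.66, 95% interval -2.70 to 0.08, adjusted p = 0.315). Cxcl1 was scattered in WT mice on NCD, at 1556, 65.4, 517 and 1856, and its interaction of -0.11 (SE 1.03, 95% interval -2.28 to 2.05, adjusted p = 0.967) changed sign with the processing. Il1b was at -0.20 (SE 0.48, 95% interval -1.21 to 0.81, adjusted p = 0.852). On SSD its highest Klrk1-/- mouse, at 16.29, lay barely below its lowest WT mouse, at 16.33, and the genotypes overlapped on NCD. Its genotype difference on SSD was not called (-0.84, adjusted p = 0.146). Over all genes tested, every WT mouse on SSD exceeded every Klrk1-/- mouse on SSD for 8.6%. Of the fibrosis genes, Col1a1 had 5027, 1432, 1499, 1324 and 358 in WT mice and 556, 671 and 358 in Klrk1-/- mice on SSD, with an interaction of -1.21 (SE 0.72, 95% interval -2.73 to 0.31, adjusted p = 0.398). Over the settings tried the interaction of Col1a1 ranged from -1.70 to -0.75. Acta2, the smooth muscle actin of activated stellate cells, was at -0.73 (SE 0.53, 95% interval -1.84 to 0.37, adjusted p = 0.485) and Lox, which cross-links collagen, at -0.52 (SE 0.95, 95% interval -2.51 to 1.47, adjusted p = 0.8). The intervals of the last 6 genes include 0, and that of Cxcl2 does not, though its adjusted p misses the threshold. The study named Cxcl1, Cxcl2, Ccl2 and Il1b from Klrk1-/- against WT mice on SSD. It named Acta2, Col1a1 and Lox from the diet in WT mice. In the same limma fit, Cxcl2 (-2.27, adjusted p = 0.00665) and Ccl2 (-1.88, adjusted p = 0.0245) were called lower in Klrk1-/- mice on SSD. Col1a1 was called higher on SSD in WT mice (1.82, adjusted p = 0.00577). Cxcl1, Il1b, Acta2 and Lox were not called in those contrasts.

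The genes of the NKG2D system were sparse in whole liver. Of 12 receptor, adaptor and ligand genes 6 reached the minimum count, among them Klrk1, which cannot follow the diet where it is knocked out. The other 5 (Hcst, Tyrobp, Raet1d, Raet1e and Ulbp1) had a negative interaction, with a median of -1.21, 1 at an unadjusted p under 0.05 and none called. Of all 6, 2 were called lower on SSD in WT mice and 2 in Klrk1-/- mice, and none higher in either. Of 21 genes of the circadian clock and its output none had a called interaction and 13 were positive (median 0.41). Npas2 was at -0.96, adjusted p = 0.0916, Cry2 at 0.52, adjusted p = 0.131 and Nfil3 at 0.66, adjusted p = 0.141. Between genotypes, 1 clock gene was called higher and 4 lower in Klrk1-/- mice on NCD, and 2 lower on SSD. Over all genes 1.74% and 2.2% were called on these diets. Of 19 glucocorticoid-responsive and fasting genes, 13 had a negative interaction (median -0.40) and 2 were called. In Klrk1-/- mice 4 of the 19 were called higher and 4 lower on NCD, and 4 lower on SSD. The 30 cytosolic ribosomal protein genes lay between -0.19 and 0.26, with none at an unadjusted p under 0.05. Of the 70 called genes, 27 fell outside the naming rule, 26 of them with a negative interaction. Named after their values were seen, the ends of their range were Iqgap3, a scaffold protein of dividing cells, at -3.36 and Dact2 at 1.30, the positive one.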

How the data were processed

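Whole-liver RNA of 16 mice was sequenced as single reads; the labels name a TruSeq mRNA kit and the study's methods a TruSeq total RNA kit. The submitters' notes name FastQC, STAR, DESeq2 and the build GRCm39, and the methods name FeatureCounts with GENCODE genes. The deposited table holds, per mouse, a normalized count signal, which the authors made by dividing gene counts by a factor per mouse; how that factor was derived is not given in the sources used here. Divided by the step of its column, 100% of the values were whole reads (within 0.01 reads), from which depth and the count models were taken. Genes averaging 10 or more normalized counts were fitted with limma 3.58.1 in R 4.3.3 (trended variances, log2 of the value + 1, 4 group means over all 16 mice), and the interaction, the diet effect in each genotype and the genotype difference on each diet were read from this fit with Benjamini-Hochberg adjustment over all 13068 genes. A call needed an adjusted p under 0.05 and a change beyond 2-fold. Samples were grouped by the labels' genotype and diet. The labels do not name litters or cages, so p-values measure the spread between these mice.

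Alternatives were edgeR 4.0.16 and DESeq2 1.42.0 on the recovered reads, other scalings, pseudocounts, minimum means, fold limits and variance models, a block for the replicate number, and each mouse left out. On data simulated with known interactions over 13009 genes, limma recovered 75.5% of the 98 changed genes of log2 size 1.5 and 90.8% of the 98 of size 2.5, with 5 unchanged genes called. Each gene was simulated on its own, with no shift shared by the genes of a mouse, so these rates need not hold for the real mice. Libraries were compared for duplicates, and none were found (chi-square per gene at least 14.3 between mice of a group). Genes were named by rule: the 12 called with the smallest adjusted p and the 6 with the largest effect in each direction, the called members of each list or otherwise up to 3 with the smallest p, Klrk1 and the genes the study names. The members and lists were chosen with earlier results of these data known. Promoter sequences are from RefSeq (table of GRCm38.p6, placed on GRCm39 by exact unique match). For 22 gene names that occur more than once, lists used the copy with the higher mean.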

Additional observations from a re-analysis of the deposited data

Results flagged for a closer look

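Single mice stood apart from the others of their group in 15 of 189 groups of 4 or 5 mice, by the gap to the nearest mouse divided by the range; chance alone gives about 1 in 20. WT SSD mouse 1 was such a mouse for 5 genes, with normalized counts of 260.4 for Gin1, 2421 for Ly6d, 601 for Atf3, 504 for Ubd and 11.96 for Ankrd9. In the same group mouse 4 stood apart for Pole (71.1) and mouse 5 for Hspa1b (863). Among WT mice on NCD, mouse 3 stood apart for Lgals3 (103) and mouse 2 for Areg (1.01) and Il1b (12.1). Among Klrk1-/- mice on NCD, mouse 1 stood apart for Fam83d (13.8) and Areg (2.30), mouse 2 for Nfil3 (931), mouse 3 for Zfpm1 (542) and mouse 4 for Marco (40.6). The Areg values are of 3 reads or fewer.

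By the interaction term of limma the response to SSD differed with genotype for each of the 43 called genes that the naming rule gives. Outside the cell cycle, genes that rose on SSD in WT mice had log2 interactions of -2.57 for Lgals3, -1.57 for Cd68, -3.52 for Mmp12, -2.35 for Atf3, -2.77 for Gdf15, -4.29 for Areg, -5.11 for Sprr1a, -3.56 for Ly6d and -3.53 for Ubd. Those of cell cycle genes, of which Mcm3 and Pole were not called for diet in WT mice, were -3.36 for Mki67, -2.37 for Top2a, -4.61 for Ccnb1, -4.25 for Ckap2l, -3.65 for Fam83d, -1.24 for Mcm6, -1.11 for Mcm3, -1.59 for Pole and -2.19 for Cdkn1a. Genes of lipid, bile acid and water handling had -1.37 for Dhcr7, -1.93 for Lpin1, -1.03 for Lpin2, -1.84 for Apoa4, -1.62 for Acot2, -2.45 for Cidec, -1.78 for Nr0b2 and -1.49 for Aqp8. The other negative ones were -2.63 for Zbtb16, -1.67 for Arhgef26, -1.32 for Ndrg1, -1.49 for Gin1 and -1.61 for Ighm. The positive ones were 1.56 for Paox, 3.06 for Slc25a25, 1.03 for Zfpm1, 1.11 for Hal, 1.36 for Fbf1, 1.63 for Enho, 1.24 for Dclk3, 1.22 for Hspa1b, 1.43 for Gse1, 1.78 for Ankrd9, 1.24 for Id2 and 1.30 for Sik1. Since the calls were made on this term, the list repeats the report's selection and is no further evidence.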

How the results depend on the processing

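The 70 interaction calls became 196 with DESeq2 (27 positive, 169 negative), 161 with array weights, 46 without a variance trend, 111 and 115 with a fold limit of 1.5 or none, and 28 to 132 with 1 mouse left out. Without both Klrk1-/- NCD mice 2 and 3, an alternative chosen after seeing the data, there were 11 interaction calls and 70 genotype calls on NCD. Between 52 and 73 interaction calls were made with edgeR, other pseudocounts, minimum means, robust variances and other scalings. The 1199 diet calls in WT mice became 719 at a minimum mean of 50, 1935 with the same total in every mouse, which moved the median of all genes by 0.341 on the log2 scale (0.256 in Klrk1-/- mice), and 2704 and 5365 with a fold limit of 1.5 or none, with 1033 to 1373 when 1 mouse was left out. The 681 in Klrk1-/- mice became 1530 and 3131 at those fold limits, with 579 to 716. The 227 genotype calls on NCD became 144 at a pseudocount of 10 and 753 and 2000 at those fold limits, with 115 (without Klrk1-/- NCD mouse 3) to 252. The 287 on SSD became 138 at a minimum mean of 50, 431 with DESeq2 and 551 and 949 at those fold limits, with 147 (without Klrk1-/- SSD mouse 1) to 407, and 165 and 166 without mice 2 and 3. Same-numbered mice did not deviate together (20 pairs, median r -0.027), and a replicate block gave 35 interaction calls, 31 of them among the 70. Of 43 called genes named, 7 kept the call in every setting (Aqp8, Arhgef26, Gdf15, Ndrg1, Paox, Slc25a25 and Zbtb16), 18 with each mouse left out, and none changed sign. With edgeR 8 of the 43 lost it (Areg, Cidec, Ckap2l, Ly6d, Mmp12, Sprr1a, Top2a and Ubd), and none with DESeq2. The call was lost by 20 with the replicate block, 13 without a variance trend, 7 with no minimum mean, 6 with quantile normalization, 3 with array weights, 2 each at a minimum mean of 50 (of 36 tested), a pseudocount of 10 and the same total in every mouse, and 1 each at a pseudocount of 0.5 and with robust variances. Genes below the threshold that changed sign were Cxcl1 (0.51 with edgeR, 0.50 with DESeq2, 0.074 without both Klrk1-/- NCD mice 2 and 3, and -0.69 to 0.91 with 1 mouse left out), Il1b (0.095 with quantile normalization, 0.23 without both mice, and -0.45 to 0.11 with 1 left out) and Lox (-1.08 to 0.043 with 1 left out). Those that turned Cxcl1 positive were WT NCD mouse 2 (0.91), WT SSD mice 1 and 2 (0.17 and 0.04) and Klrk1-/- SSD mouse 1 (0.0086), for Il1b WT NCD mouse 2 and for Lox WT SSD mouse 1. The cause of these changes was not tested. Areg, Sprr1a, Fam83d, Ckap2l, Cxcl2 and Klrk1, which have 3 reads or fewer in most mice of a group, have fitted sizes that depend on the pseudocount.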

Other observations

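Lists outside the comparisons described above gave the following values, with no test of the lists. Of 20 genes of the growth hormone axis and major urinary proteins, 13 fell on SSD in WT mice and 11 in Klrk1-/- mice, with a median interaction of 0.34. Of 14 tested targets of NRF2, the factor that raises antioxidant enzymes, 8 rose in WT mice and 5 in Klrk1-/- mice, with a median interaction of -0.06. Of 18 tested cytochrome P450 and phase II genes, 8 rose and 3 fell in WT mice and 7 rose and none fell in Klrk1-/- mice, with a median interaction of 0.12. Of 16 tested genes of T and NK cells, the cells that carry NKG2D, leaving out Klrk1 itself, 10 had a negative interaction and 1 an unadjusted p under 0.05, with a median of -0.20 and none called. Their 6 markers summed to 39.8 to 69.5 normalized counts in WT mice on NCD and 74.3 to 143 on SSD, and to 58.6 to 82.1 and 71.5 to 99.4 in Klrk1-/- mice.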
